A study of Mus musculus with 8 samples.

Results

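The 9 genes described here encode enzymes that turn squalene into cholesterol. In pathway order they are Sqle, Lss, Cyp51, Msmo1, Nsdhl, Hsd17b7, Ebp, Sc5d and Dhcr7. They were chosen by name as one stretch of the pathway, at a point when cholesterol synthesis genes were already known to have risen in these libraries. All 9 were found by symbol among the 41444 genes listed. All 9 also lay among the 11851 genes that were tested, those with a mean value of at least 4 over the 8 libraries. The study measured mRNA in macrophages grown from the bone marrow of wild-type (WT) C57BL/6 mice with the growth factor M-CSF, which both groups received. The SLIT2 group held 4 libraries of cells given 6 nM of SLIT2, a secreted ROBO receptor ligand known from axon guidance, for 16 hours, and the vehicle group held 4 libraries. The comparison asks what SLIT2 does to transcription in these cells, here read for one metabolic route. The labels do not say whether the 4 libraries of a group came from separate cultures or animals, and p-values therefore measure only the spread between these libraries, which may be technical. Values are regularized-log (rlog) values on a log2 scale, already corrected for library size by the authors, and the read depth behind them is unknown.

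Cholesterol is built from acetyl units through mevalonate to squalene, and the enzymes of the second leg close squalene into a ring system and then trim it. Most of these enzymes sit in the membrane of the endoplasmic reticulum. Their genes are classical targets of SREBP-2, a transcription factor that is released when that membrane runs low in sterol and binds promoters together with NF-Y and Sp1. In macrophages the route also yields intermediates that can activate the LXR nuclear receptors.

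Promoter sequence is shown for 4 of the enzyme genes to set the letters these factors are known for beside the expression values. Cyp51 had the largest difference of the 9 genes and Ebp the smallest, and Hsd17b7 and Sc5d lie between. The sequences are RefSeq promoter sequence on GRCm38.p6, written 5′ to 3′ on the gene's strand from 180 bases before the RefSeq start, and they stop before the first annotated exon. Capitals mark matches to a loose form of the sterol regulatory element (TCACNNCA) and to the NF-Y box (CCAAT, or ATTGG where it lies on the other strand). Matches past the printed end are not shown. Among them are NF-Y boxes 29 bases before the start of Cyp51 and 12 bases before that of Hsd17b7.
Cyp51 (chr5:4104747-4104877, minus strand): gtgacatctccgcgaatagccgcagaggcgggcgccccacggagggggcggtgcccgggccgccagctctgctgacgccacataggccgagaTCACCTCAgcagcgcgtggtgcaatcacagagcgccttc
Hsd17b7 (chr1:169969242-169969385, minus strand): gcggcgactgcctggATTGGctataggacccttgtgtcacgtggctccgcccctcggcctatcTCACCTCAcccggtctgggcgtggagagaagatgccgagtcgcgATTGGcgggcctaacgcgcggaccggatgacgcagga
Sc5d (chr9:42264301-42264480, minus strand): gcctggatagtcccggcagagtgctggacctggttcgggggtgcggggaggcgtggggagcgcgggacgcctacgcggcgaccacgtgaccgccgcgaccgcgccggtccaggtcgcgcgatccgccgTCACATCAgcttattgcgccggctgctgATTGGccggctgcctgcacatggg
Ebp (chrX:8193513-8193692, minus strand): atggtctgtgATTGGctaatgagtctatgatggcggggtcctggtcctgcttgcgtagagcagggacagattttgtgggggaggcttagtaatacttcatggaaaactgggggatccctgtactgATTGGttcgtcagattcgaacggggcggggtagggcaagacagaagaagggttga

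A RefSeq promoter window, from 250 bases before to 50 after a start, was on hand for 8 of the 9 genes. The loose element was found for Cyp51, Msmo1, Nsdhl, Hsd17b7, Sc5d and Dhcr7, 6 of the 8 genes, against 15.7% of the 27025 genes with a window. These 6 had log2 differences, SLIT2 minus vehicle, of 0.45 (Nsdhl) to 0.83 (Cyp51). Lss and Ebp, where the loose element was not found, had 0.71 and 0.34. Whether the element goes with the size of the difference was not tested. The loose match was TCACCTCA for both Cyp51 and Hsd17b7, 88 and 117 bases before the start, and TCACATCA for Sc5d, 52 bases before it. The strict form TCACNCCAC, which always contains a loose match, was found for 0 of the 8, against 1.44% of all genes. The NF-Y box was found for 8 of 8, against 41.1%, and the Sp1 box (GGGCGG) for 8 of 8, against 38.2%. The E-box CACGTG was found for Hsd17b7, Sc5d and Dhcr7, against 8.09%. Dhcr7 had 3 starts in the table and each other gene had 1, and a match in any window was counted. In the Msmo1 window 1 NF-Y box shares a base with a loose element. Of the 10 genes of the mevalonate arm, which leads to squalene, 7 had a window. The loose element was found for 2 of these 7 and the strict form for 1. The NF-Y box was found for 6 of the 7, the Sp1 box for 5 and the E-box for 0. A match describes letters only, and the binding of these factors was not measured here.

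All 9 enzyme genes were higher in SLIT2-treated macrophages. Their log2 differences, SLIT2 minus vehicle, ran between 0.34 for Ebp and 0.83 for Cyp51 with a median of 0.56, which is 1.27-fold to 1.77-fold. All 9 passed the limma test across all genes at an adjusted p of 0.05, where 6.76% of the 11851 genes tested passed with SLIT2 higher and 6.58% with SLIT2 lower (13.3% in either direction). The median difference over all genes tested was 0.0025. In all 9 the lowest SLIT2 library was above the highest vehicle library, an arrangement found with SLIT2 higher at 10.6% of the genes tested. When a difference had to exceed 0.25 to count, 3 of the 9 passed (Sqle, Cyp51 and Hsd17b7), where 1.8% of all genes tested passed with SLIT2 higher. With replicates 1 and 2, and 3 and 4, averaged into 1 sample each, 7 passed, without Lss and Nsdhl, where 3.15% of all genes did. Since the genes were chosen with such results known, 9 of 9 is a description and no independent evidence. These counts are read beside the shares for all genes, and no test was made of the 9 genes as a list.

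**Figure D1:**
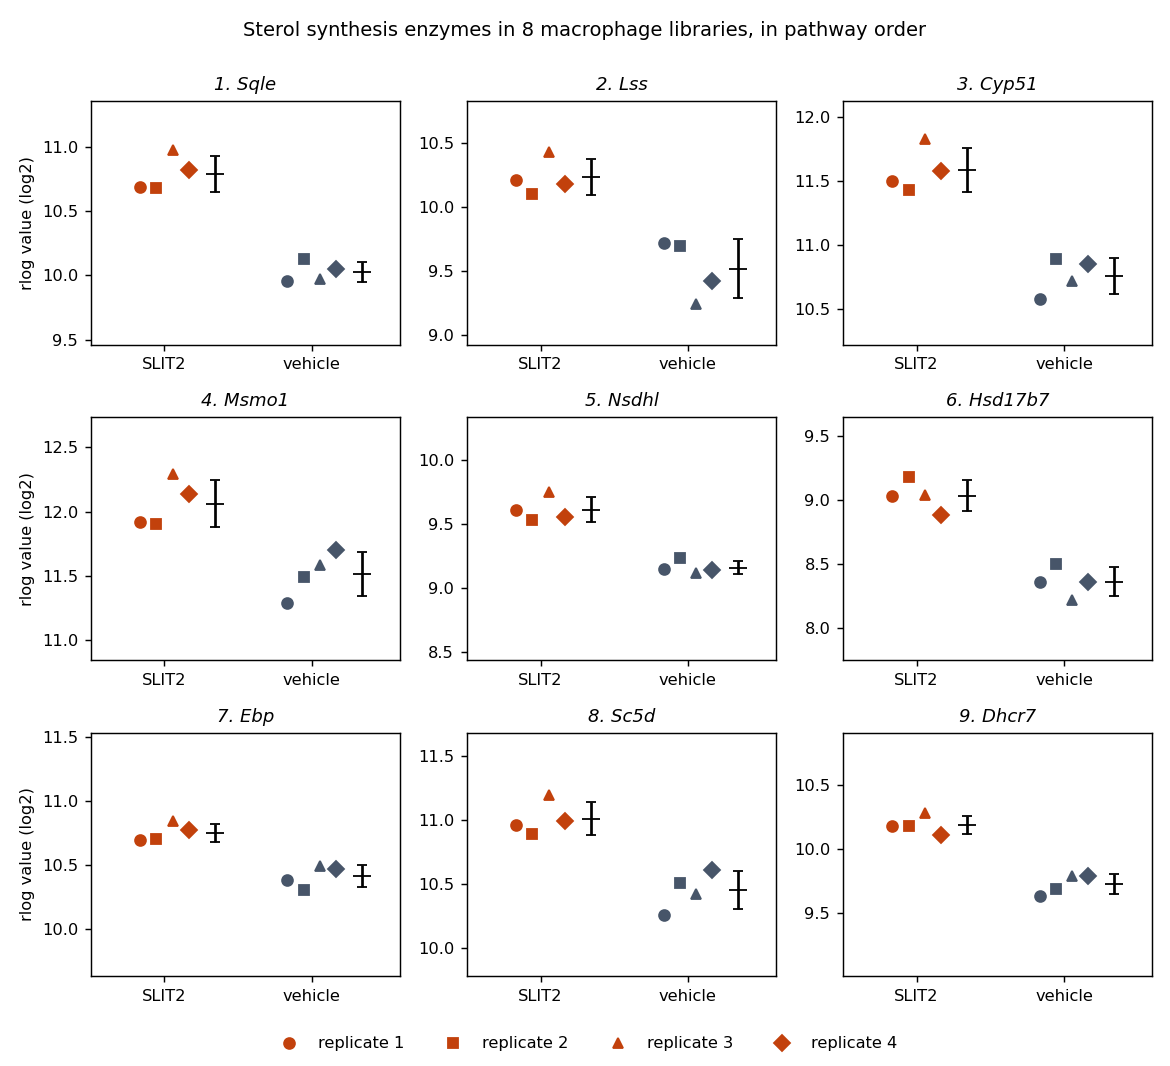
The rlog value (log2) of each enzyme gene in every library is plotted in 9 panels in pathway order, SLIT2 left and vehicle right, with point shapes for replicate numbers and black marks for mean ± SD (n = 4); each vertical axis spans the same range of log2 units. In every panel the SLIT2 points lie above the vehicle points, and SLIT2 replicate 3 is the highest SLIT2 point in 8 of 9 panels.

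Squalene is first oxidised and closed. Sqle, the squalene monooxygenase and a rate-controlling step of the route, had rlog values of 10.69, 10.68, 10.98 and 10.82 in SLIT2 replicates 1 to 4, against 9.96, 10.13, 9.97 and 10.05 in vehicle replicates 1 to 4. The groups were 0.55 apart at their nearest, the widest gap of the 9 genes. Sqle (ENSMUSG00000022351, chromosome 15, 59315077 to 59331192 in GRCm38) rose by 0.77 (SE 0.077, limma adjusted p = 5.48e-04), the smallest adjusted p of the 9.

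Lss, the lanosterol synthase that folds the oxidised chain into the first sterol, had values of 10.21, 10.1, 10.43 and 10.18 in SLIT2 libraries, against 9.72, 9.69, 9.24 and 9.42 in vehicle libraries. Vehicle replicates 3 and 4 were lower than vehicle replicates 1 and 2, and the vehicle SD of 0.23 was the largest of the 9 genes in either group. Lss rose by 0.71 (SE 0.12, limma adjusted p = 0.00634). Replicates 1 and 2 gave a difference of 0.45 and replicates 3 and 4 one of 0.98, the farthest apart of any enzyme here. A limma test of that difference between replicate pairs, which rests on the spread within each pair, gave an adjusted p of 0.0609. An antisense gene shares 381 exonic bases with Lss on the opposite strand, and no source says whether the counting used strand.

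The next enzymes strip methyl groups from lanosterol. Cyp51, the cytochrome P450 that removes the first of them, had values of 11.5, 11.43, 11.83 and 11.58 in SLIT2 libraries, against 10.58, 10.89, 10.72 and 10.85 in vehicle libraries. Cyp51 (ENSMUSG00000001467, chromosome 5, 4081145 to 4104746) rose by 0.83 (SE 0.10, limma adjusted p = 0.00129), or 1.77-fold with a 95% interval of 1.51 to 2.08. It shares 166 exonic bases with Akap9 on the opposite strand.

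Msmo1, the methylsterol monooxygenase, is the gene with the highest rlog values of the set, a statement about these values and not about transcripts per length. It had 11.92, 11.9, 12.29 and 12.14 in SLIT2 libraries, against 11.29, 11.49, 11.58 and 11.7 in vehicle libraries. In both groups replicates 3 and 4 were higher than replicates 1 and 2, and the groups were 0.20 apart at their nearest, as for Ebp. Msmo1 rose by 0.55 (SE 0.11, limma adjusted p = 0.0154), the largest adjusted p of the 9 and 8.61e-04 with replicate number as a block.

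Nsdhl, an X-linked sterol dehydrogenase that removes the oxidised carbon as carbon dioxide, had 9.61, 9.53, 9.75 and 9.56 in SLIT2 libraries, against 9.15, 9.24, 9.12 and 9.14 in vehicle libraries. It rose by 0.45 (SE 0.062, limma adjusted p = 0.00236), with a vehicle SD of 0.053, the smallest of the 9. Hsd17b7, whose product reduces the remaining ketone, had 9.03, 9.18, 9.04 and 8.88 in SLIT2 libraries, against 8.36, 8.5, 8.22 and 8.36 in vehicle libraries. It rose by 0.67 (SE 0.084, limma adjusted p = 0.00149), the same size in both replicate pairs (0.68 in 1 and 2, 0.67 in 3 and 4). Hsd17b7 is the one enzyme gene in which SLIT2 replicate 3 was not the highest SLIT2 library.

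The last enzymes rearrange and reduce the double bonds of the ring. Ebp, an X-linked sterol isomerase, had 10.69, 10.7, 10.84 and 10.77 in SLIT2 libraries, against 10.38, 10.3, 10.49 and 10.47 in vehicle libraries. Ebp (ENSMUSG00000031168, chromosome X, 8185329 to 8193512) rose by 0.34 (SE 0.059, limma adjusted p = 0.00687), the smallest difference of the 9, or 1.27-fold with a 95% interval of 1.15 to 1.39. Its difference was nearly level across same-numbered libraries, between 0.30 and 0.40.

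Sc5d, the sterol desaturase, had 10.96, 10.89, 11.19 and 10.99 in SLIT2 libraries, against 10.26, 10.51, 10.42 and 10.61 in vehicle libraries, and rose by 0.56 (SE 0.090, limma adjusted p = 0.00519). Dhcr7, the reductase that makes cholesterol from dehydrocholesterol, had 10.18, 10.18, 10.28 and 10.11 in SLIT2 libraries, against 9.63, 9.69, 9.79 and 9.79 in vehicle libraries. Dhcr7 rose by 0.46 (SE 0.058, limma adjusted p = 0.00151), and its SLIT2 libraries had an SD of 0.070. Both genes kept their groups apart, by 0.28 and 0.32 at the nearest.

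Neighbouring steps of the route were compared by the gap between their rlog values within each library. Over all libraries the log2 differences of the first 3 enzymes (0.77, 0.71 and 0.83) were each larger than those of the other 6. That order did not hold in replicates 1 and 2, where Hsd17b7 at 0.68 was above Sqle at 0.64 and Lss at 0.45, and where Sc5d (0.54), Msmo1 (0.52) and Dhcr7 (0.52) were also above Lss. Of the 8 neighbouring pairs, 0 passed an exact two-sided permutation test over the libraries after Benjamini-Hochberg adjustment, and 2 had an unadjusted p of 0.0286, the smallest that 4 libraries against 4 allow. With 8 pairs that p can pass only where several pairs reach it together. The step from Cyp51 to Msmo1 was 1 of the 2: Msmo1 minus Cyp51 was 0.48 ± 0.059 in SLIT2 libraries and 0.76 ± 0.12 in vehicle libraries (SD, n = 4 each, exact permutation p adjusted 0.114), so Msmo1 rose by less by 0.28 (SE 0.069). The step from Nsdhl to Hsd17b7 was the other: Hsd17b7 minus Nsdhl was -0.58 ± 0.16 in SLIT2 libraries and -0.80 ± 0.069 in vehicle libraries (SD, n = 4 each, exact permutation p adjusted 0.114), a difference of 0.22 (SE 0.088). The largest difference between neighbours was from Hsd17b7 to Ebp, at -0.33 (SE 0.13, exact permutation p 0.0857, adjusted 0.171). These p-values do not show that the steps moved alike.

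**Figure D2:**
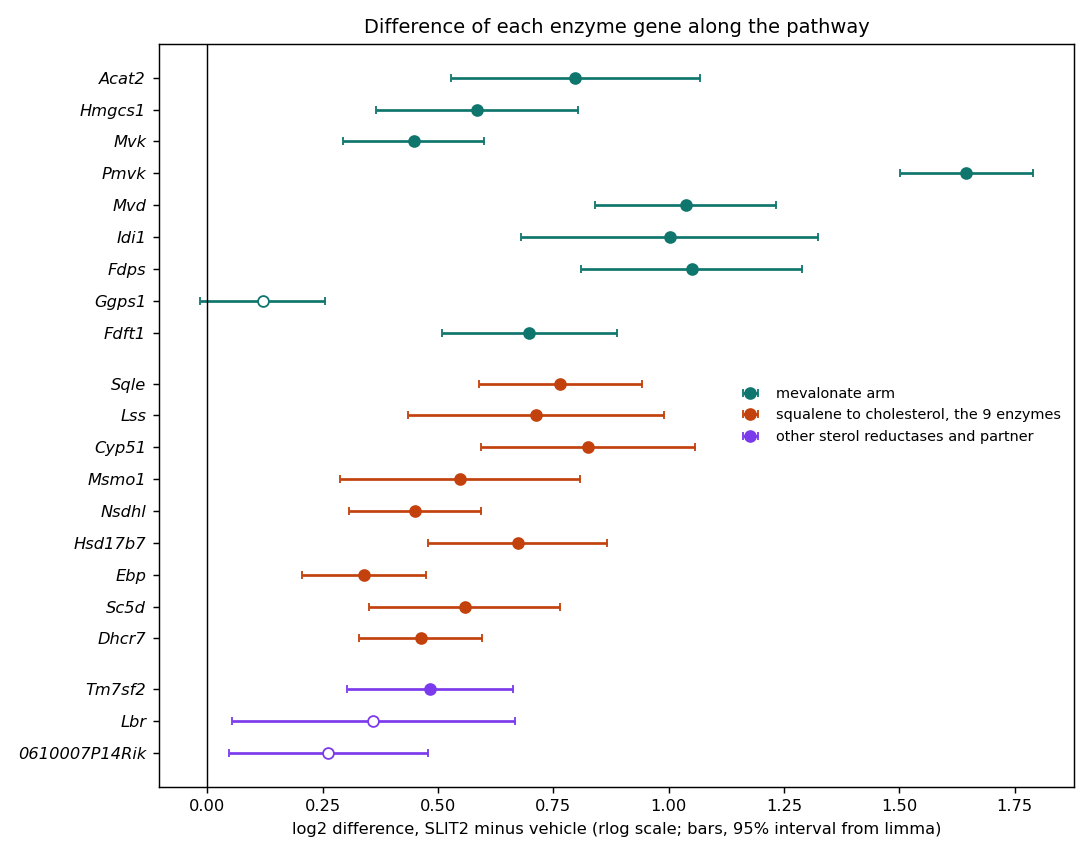
Points give the log2 difference, SLIT2 minus vehicle on the rlog scale, of 9 mevalonate arm genes, the 9 enzyme genes and 3 other sterol genes, with 95% intervals from limma; filled points passed the test at an adjusted p of 0.05 and open ones did not. The 9 enzymes lie between 0.34 and 0.83, and Pmvk at 1.65 and Ggps1 at 0.12 bound the mevalonate arm.

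The libraries carried a division by replicate number that crosses treatment. Xist, expressed from an inactive X chromosome, set the first 2 replicate numbers apart from the last 2 in both groups. It had rlog values of 7.47 to 7.65 in replicates 1 and 2 and 12.69 to 12.79 in replicates 3 and 4, and the Y-linked Ddx3y had 10.75 to 10.83 and 5.9 to 6.45. The genes that mark macrophages were present in all libraries (7 of 7 markers tested, Csf1r between 15.33 and 16.18). Among them Fcgr1 rose by 1.17 (limma adjusted p = 0.00160) and Cd68 fell by 0.25 (adjusted p = 0.0183), and the other 5 did not pass the test. Of the other lists, 4 of 5 neutrophil, 4 of 5 dendritic cell, 5 of 5 lymphocyte and 4 of 4 erythroid and mast cell markers were below the test's minimum. The fibroblast collagen genes Col1a1 and Col1a2 were detected: the summed level of the 5 stromal and endothelial markers, as log2, was 9.14 to 9.78 in SLIT2 libraries and 8.92 to 9.63 in vehicle libraries, highest in SLIT2 replicate 3. The 4 osteoclast markers summed to 8.80 to 9.16 in SLIT2 libraries and 9.07 to 9.63 in vehicle libraries, where Dcstamp fell by 1.40 (limma adjusted p = 0.00615) while Ctsk differed by -0.02 (adjusted p = 0.901) and Acp5 by -0.05 (adjusted p = 0.944). The part of these cells in the results was not tested, and in bulk RNA more cells of a type and more RNA per cell cannot be told apart. Without SLIT2 replicate 3 all 9 enzyme genes still passed, where 1140 of the 11851 genes tested passed in either direction. Leaving out that library was no test of the part of these cells.

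Within replicate numbers SLIT2 was the higher library in 36 of 36 comparisons (9 genes in 4 same-numbered pairs), by 0.29 to 1.19. That count follows from groups that do not overlap in any of the 9 genes and is no further evidence. The median over the 9 genes was 0.63 for replicate 1, 0.41 for replicate 2, 0.77 for replicate 3 and 0.44 for replicate 4. SLIT2 replicate 3 was the highest SLIT2 library for 8 genes, and SLIT2 replicate 2 the lowest for 6. Among vehicle libraries, replicate 2 was highest for 4 genes and replicate 4 for 2, and replicate 1 was lowest for 5 and replicate 3 for 3. The orders of the 2 groups were not tested against each other. Taken by replicate pair, the 9 differences had a median of 0.52 for replicates 1 and 2 and of 0.58 for replicates 3 and 4, and 6 of 9 genes differed more in replicates 3 and 4. None of the 9 passed the limma test of the difference between the pairs (0 of 9 at an adjusted p of 0.05, 2 at an unadjusted p under 0.05, Sqle and Lss), where 4.4% of all genes tested did.

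**Figure D3:**
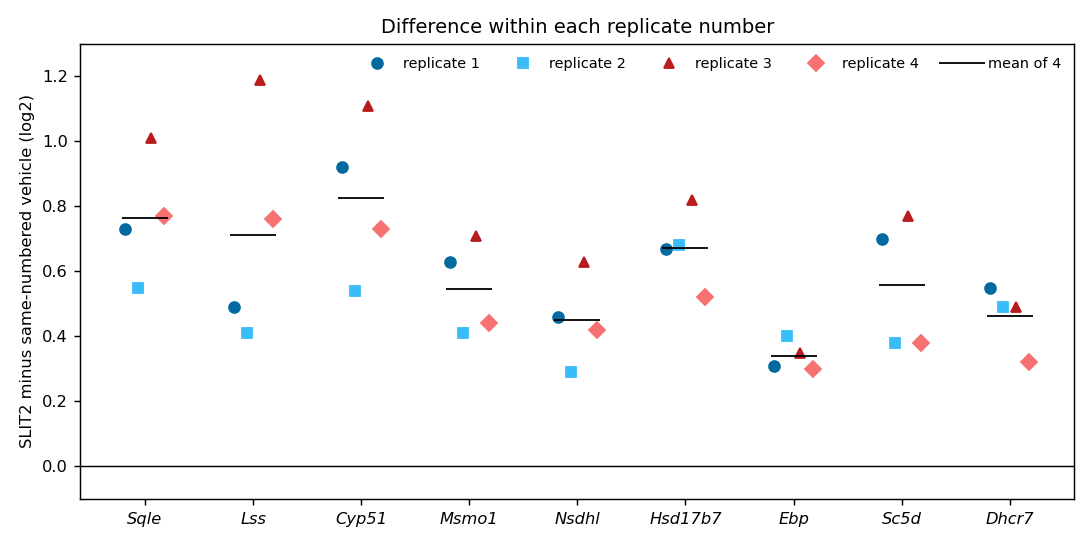
Each point is a SLIT2 library minus the vehicle library of the same replicate number for 1 enzyme gene, on the log2 scale, and black bars are the means of the 4. All 36 points lie above 0, which follows from groups that do not overlap in any of the 9 genes. Replicate 3 gives the largest difference for 7 of the 9 genes.

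The genes that lead to squalene were mostly higher too. Of 10 genes of the mevalonate arm, 9 rose and 0 fell by the limma test (6.76% and 6.58% of all genes tested), with a median log2 difference of 0.75, against 0.56 for the 9 enzymes after squalene. Pmvk, the phosphomevalonate kinase, differed most, with 10.67, 10.66, 10.61 and 10.43 in SLIT2 libraries, against 8.91, 8.92, 8.98 and 8.98 in vehicle libraries. Fdps, Mvd and Idi1, which make and join the isoprene units, rose by 1.05, 1.04 and 1.00. Ggps1, which leads to protein prenylation and away from sterols, differed by 0.12 (adjusted p = 0.247, and 0.0445 with the block). Exons of Fdps overlap Gm43738 by 1124 bases on the same strand. Fdft1, the squalene synthase just before Sqle, rose by 0.70 (SE 0.083, limma adjusted p = 0.00114). It shares 774 exonic bases on the opposite strand with Ctsb.

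The remaining sterol enzymes gave a mixed count. Of 4 tested, 2 rose and 0 fell (6.76% and 6.58% of all genes tested). With replicate number as a block 4 rose and 0 fell, where 16.6% of all genes tested were called higher. Tm7sf2 and Lbr encode the sterol reductases that act between Cyp51 and Msmo1. Tm7sf2 rose by 0.48 (SE 0.078, limma adjusted p = 0.00519), and its exons share 532 bases with Vps51 on the same strand. Lbr differed by 0.36 (SE 0.13), with a limma adjusted p of 0.128 and of 7.08e-04 with the block, and it was higher in replicates 1 and 2 than in 3 and 4 in both groups. The gene listed as 0610007P14Rik, named Erg28 in GENCODE M21, differed by 0.26 (adjusted p = 0.115).

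The electron donors and haem partners of these enzymes were counted together, with Pgrmc1, Pgrmc2 and Hmox2 as the haem partners. Of these 8 genes tested, 1 was higher and 1 lower (6.76% and 6.58% of all genes tested), with a median log2 difference of -0.005. With the block 1 was higher and 3 lower, where 16.6% of all genes tested were called higher and 16.4% lower. Cyb5b, a cytochrome b5 of the outer mitochondrial membrane, rose by 0.35 (SE 0.042, limma adjusted p = 0.00112). Por, the reductase that passes electrons to Cyp51 and Sqle, had 12.65, 12.65, 12.46 and 12.6 in SLIT2 libraries, against 13.19, 13.22, 12.8 and 13.01 in vehicle libraries. Por thus fell by 0.47 (SE 0.096, limma adjusted p = 0.0156) while Cyp51 and Sqle rose.

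Among 15 tested genes of sterol sensing and uptake, 4 rose and 2 fell, where 6.76% of all genes tested rose and 6.58% fell, with a median log2 difference of -0.03. The count was 6 higher and 3 lower with the replicate block, and 1 higher and 0 lower with duplicates averaged. Those that rose included Insig1, which holds SCAP back when sterol is plentiful (0.81, SE 0.067, limma adjusted p = 2.37e-04), the sterol carrier gene Stard4 (0.72) and Srebf2 itself (0.48, SE 0.075, adjusted p = 0.00416). The 2 that fell were Mbtps2, a protease that releases SREBP (fell by 0.26), and Mylip, a ubiquitin ligase induced by LXR (fell by 0.28). Neither passed with duplicates averaged, and 1 of the 2 calls was lost without any one of SLIT2 replicates 1, 3 or 4 or vehicle replicates 1 or 2. Exons of Mbtps2 share 2867 bases with Yy2 on the same strand. Srebf1 differed by 0.38 (SE 0.17, adjusted p = 0.206, and 0.0173 with the block). Scap differed by -0.11 (adjusted p = 0.393) and Insig2 by -0.11 (adjusted p = 0.427). Of 10 genes that act after synthesis, 3 were higher and 3 lower, against the same shares of all genes, and 2 were higher and 0 lower with duplicates averaged. Ch25h, which makes an oxysterol from cholesterol, rose by 1.23 and the esterifying enzyme gene Soat2 by 1.03, while Lipa, the lysosomal acid lipase gene, fell by 0.79 and Soat1 by 0.29. In vehicle libraries Soat2 and Ch25h had low mean rlog values of 5.94 and 6.5, and Soat1 one of 14.43. Averaging the duplicates ended the calls of Tm7sf2, Por, Srebf2, Stard4, Soat1 and Lipa (limma adjusted p between 0.0560 and 0.0844). Soat1 had an adjusted p of 0.0336 over all libraries and between 0.0537 and 0.0886 without any one of vehicle replicates 1, 2 or 4 or SLIT2 replicates 2, 3 or 4.

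The profile of the 9 enzymes over the 8 libraries was then set against every other gene tested. Each gene's values were centred on its own mean, and the root mean square distance to the mean profile of the 9 was taken on the log2 scale over 8 libraries. Of 11842 other genes the closest was Litaf, a gene of an endosomal membrane protein, at 0.0515. Bzw2, a translation regulator, followed at 0.0634. Next came Fdft1 at 0.065 and Aacs, which activates acetoacetate in the cytosol, at 0.0672. Auh, an enzyme of leucine breakdown, lay at 0.0797. The 9 enzymes themselves, which make up that mean, lay between 0.0638 for Sc5d and 0.158 for Lss, and 160 other genes lay at least as close as Lss. The distance is a description of likeness over libraries that share their treatment and replicate pairs.

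**Figure D4:**
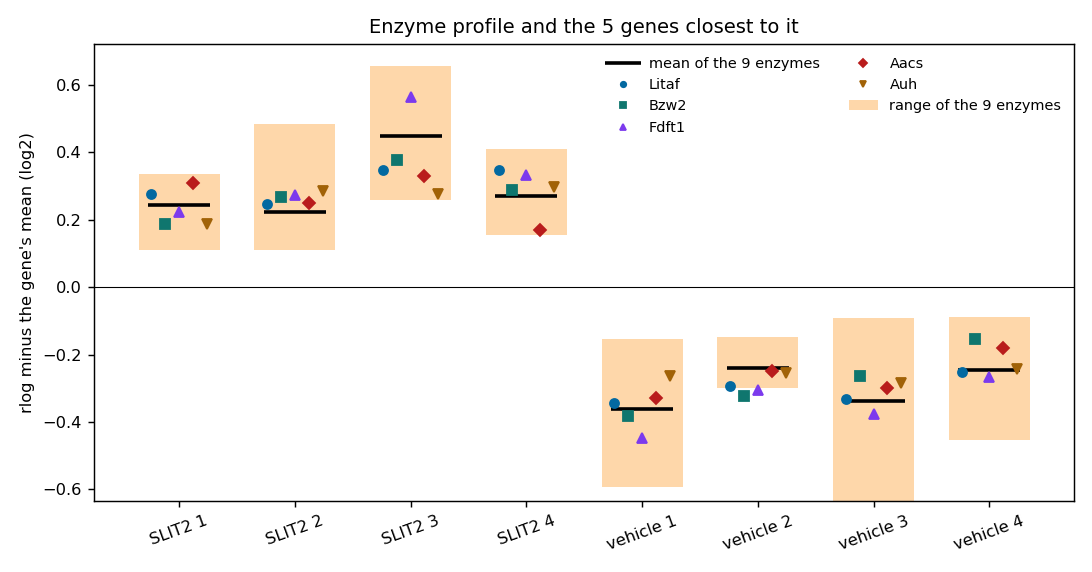
Shaded bars span the 9 enzyme genes in each library, on rlog values centred on each gene's mean (log2), black marks are their mean and coloured points are the 5 closest other genes. The mean of the enzymes is 0.222 to 0.448 in SLIT2 libraries and -0.363 to -0.239 in vehicle libraries. SLIT2 replicate 3 is highest for that mean and for Fdft1, Bzw2 and Aacs. For Litaf it ties with SLIT2 replicate 4, which is the highest for Auh.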

How the data were processed

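Per the labels' protocols, RNA from frozen cell pellets was made into stranded mRNA libraries and sequenced as paired-end reads. Tools named for the authors' work, per the submitters' processing notes, are STAR, Salmon, DESeq2, Picard 2.23.8, SAMtools 1.7 and FastQC 0.11.9, on mm10 and GRCm38; settings were not stated. The deposited values are rlog values on a log2 scale, to 2 decimals, for 41444 genes in 8 libraries. Because rlog pulls values in towards their gene average, fold changes are understated, most at low counts. No counts were given, so depth and counting error are unknown.

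Testing was limited to genes averaging an rlog of 4 or more. It was done with limma 3.58.1 in R 4.3.3 (mean-variance trend, two-sided, Benjamini-Hochberg adjustment over all 11851 genes, threshold 0.05), with treatment only. Neighbouring enzymes were compared by exact permutation. The alternatives were blocks, averaged duplicates, filters, variance priors, scalings, weights, a minimum size and leaving out libraries. The steps were tested on simulated data. Replicate number entered the fit as a block only among the alternatives. In the data, deviations from the group mean correlated between same-numbered libraries by 0.637, 0.671, 0.753 and 0.587 across genes. Differently numbered libraries were not correlated in this way, so these values do not show that the numbers pair the samples. Coordinates and overlaps came from GENCODE M21, which held 41157 of the identifiers, and promoters from RefSeq. Figures were drawn with matplotlib 3.10.9.

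The members, lists and tests were chosen with earlier results of these data known, among them that cholesterol synthesis genes rose. The text names the 9 enzymes, up to 4 called genes per list with the widest difference (or the one with the smallest p), the 5 nearest profiles, and Fdft1, Tm7sf2, Lbr, Srebf1, Srebf2, Scap, Insig1 and Insig2. Some genes that the lists and counts hold are not reported here. Ggps1, Erg28, Mbtps2, Mylip, Pgrmc1, Pgrmc2, Hmox2, the cell type markers, Xist and Ddx3y fall outside this rule and were picked with their values in view. The listed genes Faxdc2, Marchf6 and Spring1 were not matched to the table.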

Additional observations from a re-analysis of the deposited data

Results flagged for a closer look

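Of the 35 genes chosen by rule, 3 had a SLIT2 effect that differed between the replicate pairs by a limma test of the difference itself, which rests on the spread within each pair. Of all genes tested, 4.4% passed that test. None of the 9 enzyme genes was among the 3. Srebf2 differed by 0.34 in replicates 3 and 4 and by 0.63 in replicates 1 and 2, a gap of -0.295 (adjusted p = 0.0349). Srebf1 differed by 0.19 and 0.56 in the same pairs, a gap of -0.37 (adjusted p = 0.0349). Lipa fell by 0.57 in replicates 3 and 4 and by 1.02 in replicates 1 and 2, a gap of 0.455 (adjusted p = 0.0127).

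In 1 of 70 groups of 4 libraries a value stood apart from the other 3. Insig2 had 10.49 in vehicle replicate 1, where the other vehicle libraries had 10.19 to 10.23. Chance alone sets about 1 in 20 such groups apart.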

How the results depend on the processing

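The 9 enzyme genes kept their direction in all 189 values (9 genes under 21 alternatives) and lost a call in 8 of them. The kept direction is no separate evidence. Blocks, averaged duplicates, filters, variance priors and the minimum size leave the difference itself unchanged. Groups that do not overlap keep their direction when libraries are weighted or left out. A minimum difference of 0.25 left 3 of the 9 past the test (Sqle, Cyp51 and Hsd17b7; 1.8% of all genes tested were called higher), with adjusted p between 0.0666 (Lss) and 0.860 (Ebp) for the other 6. With duplicates averaged, replicate pair as a block, 7 passed (3.15% of all genes), without Lss (adjusted p = 0.100) and Nsdhl (0.0606). With replicate number as a block all 9 passed. Of the other sterol-related genes named, Lbr, Srebf1, Ggps1 and Erg28 joined as higher and Pgrmc1 as lower (limma adjusted p = 0.0925, and 0.0191 with the block). The block changed no other call among the genes chosen by rule. The 1581 genes called overall became 3912 with the replicate block, 4652 with the set block, 688 with averaged duplicates, 3962 in replicates 1 and 2 alone, 2880 in replicates 3 and 4 alone, 374 with the minimum difference and 1021 to 1254 without 1 library, the lowest without SLIT2 replicate 2. The 521 genes past the test between replicate pairs became 116 with no variance trend and 122 to 579 without 1 library; leaving out any library but vehicle replicate 3 lowered that count by over 1.5 times. No neighbouring pair passed under quantile normalization or without any 1 library (0 in each). Labels exchanged only within replicate numbers allow no p below 0.125, so that alternative could not call a pair. The difference of Lss from Sqle was -0.05 over all libraries, 0.085 in replicates 3 and 4 alone and 0.0375 without vehicle replicate 1, and that of Cyp51 from Lss 0.11, -0.055 and -0.015; the cause was not tested. A minimum difference of 0.25 also ended the calls of Tm7sf2, Por, Cyb5b, Srebf2, Mbtps2, Mylip, Soat1 and Soat2. Unknown depth limits every value.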

Other observations

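Nsdhl and Ebp are X-linked, and replicates 1 and 2 differ from replicates 3 and 4 in Xist. Ebp was higher in replicates 3 and 4 than in 1 and 2 by 0.11 in SLIT2 libraries and by 0.14 in vehicle libraries. Nsdhl differed by 0.085 in SLIT2 libraries and by -0.065 in vehicle libraries. The autosomal gene Msmo1 differed by more, 0.31 in SLIT2 libraries and 0.25 in vehicle libraries. Over the 9 enzymes, replicates 3 and 4 were on average higher for 8 genes in SLIT2 libraries and for 5 genes in vehicle libraries.

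By mean rlog level the 9 enzymes ranked between 1742 (Msmo1) and 7444 (Hsd17b7) of 11851 genes tested. By size of difference they ranked from 236 (Cyp51) to 790 (Ebp), and 8 of 9 lay above the 95th percentile of all genes tested, 0.42. These ranks depend on the same libraries as the differences and are no separate evidence.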
